A study of Mus musculus with 24 samples.

Results

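The Irx genes encode Iroquois homeodomain transcription factors, and the mouse carries 6 of them, Irx1 to Irx6. They were selected by name from the deposited table of read counts, in which all 6 were found among 51697 named genes. They fall into 2 clusters of 3 genes, Irx1-Irx2-Irx4 on chromosome 13 and Irx3-Irx5-Irx6 on chromosome 8. The study depleted the chromatin architectural protein CTCF in F123 mouse embryonic stem (ES) cells and followed RNA in ES cells and during differentiation to neural progenitor cells. All 24 libraries came from 1 line, CTCF-AID, in which CTCF carries an auxin-inducible degron, a tag that directs the protein for destruction when the plant hormone auxin is added, so the untreated controls carried the tag too. Auxin was taken from a 500 mM stock at 1 µl for each ml of medium and was renewed every 24 h.

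The 12 groups held 2 libraries each. ES cells were sampled before auxin (0 h) and after 24, 48 and 96 h of auxin. Cells on days 2, 4 and 6 of differentiation were sampled without auxin (control) and with auxin. The day 4 washout and day 6 washout groups were harvested 2 days after auxin had been removed on day 4 or day 6. The day 6 washout cells were therefore 2 days older than the day 6 control and day 6 auxin cells, and for that group age and auxin removal cannot be told apart. The labels do not say that the 2 libraries of a group were separate cultures, and p-values below therefore measure the spread between these libraries, which may be technical. Untagged cells given auxin were not analysed here, so loss of CTCF and exposure to auxin cannot be told apart, and the number of clones behind the line is not given in the sources used here.

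Iroquois proteins belong to the TALE class of homeodomain factors and act as repressors or activators of cell identity genes. Vertebrate Irx genes are arranged in paired clusters that arose by duplication, and the genes of a cluster often share regulatory sequence and expression domains. In the neural tube Irx3 and Irx5 mark progenitors, and Irx3 and the motor neuron progenitor factor Olig2 repress each other, which sets a boundary between the progenitors of interneurons and those of motor neurons. Irx1 and Irx2 are known from neural plate, lung and kidney development, Irx4 from the heart ventricle, Irx5 from the heart and retina, and Irx6 from retinal bipolar neurons. Introns of Fto, the gene beside Irx3, are known for enhancers that contact the Irx3 promoter.

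In mm10 (GENCODE annotation), the Irx1-Irx2-Irx4 cluster spans 1312 kb of chromosome 13. Irx1 lies at chr13:71957921-71963723 on the minus strand, Irx2 at chr13:72628820-72634198 on the plus strand and Irx4 at chr13:73260479-73269608 on the plus strand. The Irx3-Irx5-Irx6 cluster spans 882.4 kb of chromosome 8. Irx3 lies at chr8:91798525-91802067 on the minus strand, Irx5 at chr8:92357625-92376286 on the plus strand and Irx6 at chr8:92674288-92680956 on the plus strand. All 6 are protein coding. In each cluster the first gene is thus transcribed away from the other two. Irx3 shares 124 bases of exon (4.49% of its exon length) with the antisense gene Irx3os, and Irx6 shares 152 bases (4.51%) with the antisense gene Gm45505. Whether the counting used strand is not given in the sources used here, so reads over those bases cannot be assigned to one of the pair.

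The start regions of the Irx genes are shown because the study asks about CTCF at promoters. RefSeq promoter windows (GRCm38.p6, 250 bases before to 50 after the start) matched 3 of the 6 genes, Irx2, Irx3 and Irx4. The bases upstream of the annotated gene are printed for the 2 whose window extends beyond it, 5′ to 3′ on the plus strand, with CpG dinucleotides in capitals. They are chr13:72628570-72628819 for Irx2 (250 bases with 19 CpG) and chr13:73260247-73260478 for Irx4 (232 bases with 19 CpG).
Irx2: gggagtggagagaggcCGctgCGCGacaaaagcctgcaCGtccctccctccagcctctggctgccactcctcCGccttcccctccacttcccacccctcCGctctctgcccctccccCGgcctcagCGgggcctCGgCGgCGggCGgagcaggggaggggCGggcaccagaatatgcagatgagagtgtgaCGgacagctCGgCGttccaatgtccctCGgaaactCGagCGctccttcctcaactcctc
Irx4: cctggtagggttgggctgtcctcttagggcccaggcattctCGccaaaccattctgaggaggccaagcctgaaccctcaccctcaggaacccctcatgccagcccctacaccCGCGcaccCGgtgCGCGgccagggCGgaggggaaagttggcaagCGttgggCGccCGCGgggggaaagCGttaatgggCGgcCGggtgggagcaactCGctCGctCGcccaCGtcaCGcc
Over the whole 300-base windows the CpG count was 25 for Irx2, 31 for Irx4 and 14 for Irx3, against a median of 7 over 32851 windows. The letters GGNGGCAG, a core of the CTCF motif, were searched on both strands (CTGCCNCC on the other strand) and were present in 12.6% of all windows. They were present in none of the 3 Irx windows, which says only that these letters are not in those windows.

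Total counts ran from 24696374 to 29909368 in the 4 first ES replicates, from 51686150 to 61681404 in the 4 second ES replicates and from 51053184 to 72048935 in the 16 differentiation libraries. The ES replicates differed more from each other than the differentiation replicates did: the SD of the log2 ratio between replicates, over genes, was 0.919 to 1.08 for ES cells and 0.461 to 0.513 for differentiating cells other than day 2 auxin, where it was 0.607. Comparisons within ES cells, within differentiation and between ES and control cells were therefore fitted separately, on 8, 16 and 24 libraries. The degron acts on the CTCF protein, so no RNA level here checks its loss. Of the marker lists, the summed level of 8 pluripotency markers was 3790 to 4640 CPM (counts scaled to library size) in ES cells at 0 h. In the day 6 control it was 452 to 470 CPM. Of 8 neural progenitor markers 7 rose and 1 fell between the day 2 and day 4 controls, where 52.1% of all tested genes were called (threshold below). In that step 8 of 8 endoderm and 9 of 9 mesenchyme or fibroblast markers also rose, and of 7 neuron markers 2 rose and 4 fell. The differentiated cells were not of 1 kind: between the day 4 and day 6 controls 7 of 7 neuron markers and 8 of 9 mesenchyme or fibroblast markers rose. There 26.7% of all tested genes were called, and of 8 neural progenitor markers 3 rose and 4 fell. In such bulk samples, fewer cells of a type and less RNA per cell cannot be told apart.

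Levels below are in CPM, with SD over 2 libraries. Differences are log2 fold changes with SE from edgeR's quasi-likelihood test, and a gene was called higher or lower at a Benjamini-Hochberg adjusted p below 0.05 over all genes of the fit. Irx3 had the widest range of the 6 in absolute CPM, whereas in proportion the group means of Irx6 (0.018 to 0.668 CPM) ranged more widely, on far fewer counts. The counts of Irx3, replicate 1 first, were 52 and 165 in ES cells at 0 h, 335 and 497 in the day 2 control, 3399 and 4197 in the day 4 control and 562 and 849 in the day 6 control. In CPM its order from the top was day 4 control (60.2 ± 4.77), day 4 auxin (36.9 ± 0.225) and day 6 auxin (16.8 ± 0.606). After these came day 6 control (10.4 ± 1.76), day 4 washout (10.4 ± 0.573), day 6 washout (8.01 ± 0.738), day 2 auxin (7.39 ± 1.01), day 2 control (6.59 ± 1.24) and the 4 ES groups (2.46 to 3.32). The first 3 groups stood apart from their neighbours in this order with no overlap, whereas day 6 control overlapped day 4 washout, day 6 washout overlapped day 2 auxin, day 2 auxin overlapped day 2 control, and the ES groups overlapped one another.

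**Figure D1:**
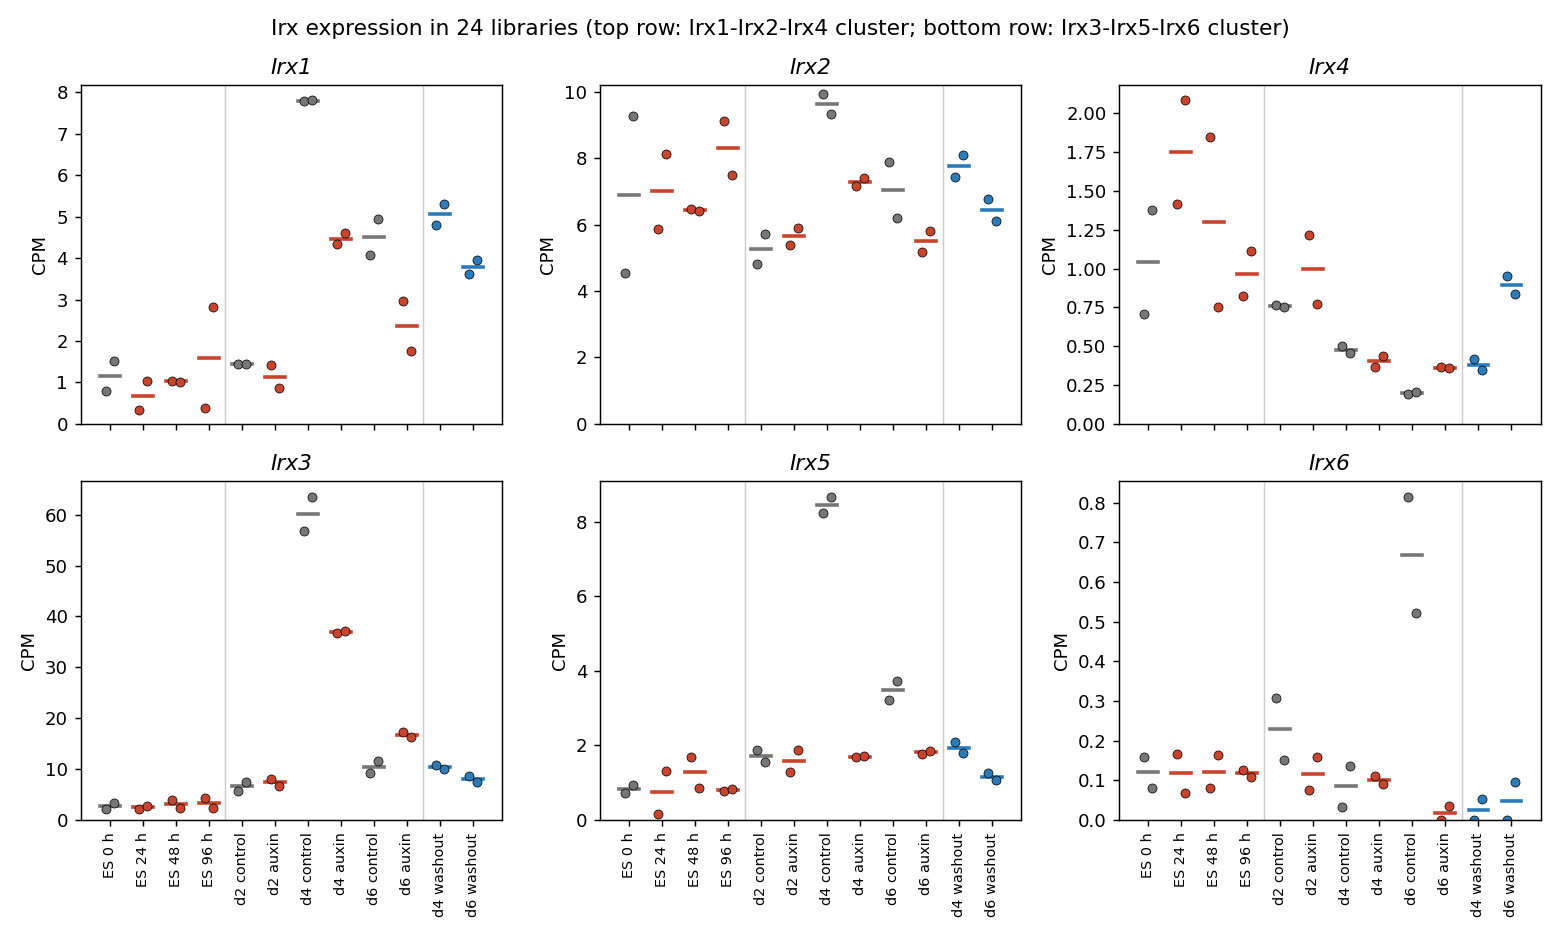
Level of each Irx gene in the 24 libraries, in CPM on a linear axis with its own scale for each gene. Points are libraries and bars are group means of 2; grey marks groups without auxin, red marks auxin and blue marks washout, with the Irx1-Irx2-Irx4 cluster in the top row and the Irx3-Irx5-Irx6 cluster in the bottom row. Irx1, Irx2, Irx3 and Irx5 have their highest group mean in the day 4 control, Irx4 in ES cells after 24 h of auxin and Irx6 in the day 6 control.

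Irx5, the partner of Irx3 in many tissues, was also highest in the day 4 control, at 8.23 and 8.67 CPM. The day 6 control followed at 3.21 and 3.73 CPM, with no overlap. Every other group lay between 0.737 and 1.94 CPM on average, and most neighbours among them overlapped. The day 4 auxin libraries, at 1.69 and 1.70 CPM, lay within the range of the day 2 control libraries, at 1.55 and 1.87 CPM.

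Irx6, the third gene of that cluster, was close to the detection limit in all groups but one. It had 50 and 38 counts in the day 6 control (0.814 and 0.521 CPM), 18 and 10 in the day 2 control and between 0 and 10 in each of the other 20 libraries. It had 0 counts in 1 library each of the day 6 auxin, day 4 washout and day 6 washout groups. A count of 0 allows up to 3 counts, or 0.0496 CPM in the first day 6 auxin library (counting error only). This takes counts as independent, and since most low counts were even it may be too tight. Irx6 passed the filter on low counts only through the day 6 control, the 1 group with more than 10 counts in both libraries. It was thus tested because it is high there. The calls of Irx6 against that group below follow in part from how it was kept, and their p-values are no independent support.

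In the other cluster, Irx1 was highest in the day 4 control, at 7.79 and 7.80 CPM. The day 4 washout (5.06 ± 0.354), day 6 control (4.51 ± 0.622) and day 4 auxin (4.46 ± 0.19) groups came next and overlapped in that order. Below them lay day 6 washout (3.79 ± 0.244) and day 6 auxin (2.36 ± 0.843), and the ES and day 2 groups held 0.685 to 1.60 CPM with overlaps between all neighbours. The 2 ES libraries after 96 h of auxin differed from each other more than most groups did, at 0.381 and 2.82 CPM.

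Irx2 varied least in proportion. It was highest in the day 4 control, at 9.93 and 9.32 CPM, and its lowest group was the day 2 control, at 4.81 and 5.71 CPM. The ES libraries alone ran from 4.54 to 9.25 CPM, which covers nearly the whole range of the differentiation groups. Irx4 was highest in ES cells. Its highest groups were ES cells after 24 h of auxin (1.42 and 2.09 CPM) and 48 h of auxin (1.85 and 0.751 CPM), and its lowest was the day 6 control (0.195 and 0.206 CPM).

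In untreated cells the first comparison asks how the Irx genes change as ES cells leave pluripotency. On day 2, 1 of the 6 was called against ES cells at 0 h, in a comparison in which 18.2% of 23831 tested genes were called. This was Irx3, at 5.71 and 7.47 CPM against 2.05 and 3.35 CPM (log2 fold change 1.26 ± 0.29, adjusted p = 0.005). The call was lost without day 2 control replicate 2 (adjusted p = 0.067), without ES 0 h replicate 1 (adjusted p = 0.056, in which fit Irx2 was called lower at adjusted p = 0.027) and in a fit of the 4 compared libraries alone (adjusted p = 0.15). With the ES 0 h and control groups alone in the fit, Irx5 was called as well (log2 fold change 1.00 ± 0.23, adjusted p = 0.026).

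By day 4, Irx3, Irx5 and Irx1 had risen and Irx4 had fallen, with 38.4% of genes called in that comparison. Irx3 was 21.9-fold above ES cells (log2 fold change 4.45 ± 0.31, adjusted p = 5.5e-09). Irx5 was 10.1-fold above (3.34 ± 0.49, adjusted p = 3.8e-05) and Irx1 6.55-fold above (2.71 ± 0.58, adjusted p = 0.0012). None of the ES 0 h libraries overlapped the day 4 control for these 3 genes, which were already picked as called. How many of all genes lacked overlap is not given here. Irx4 fell by 1.16 on the log2 scale (SE 0.43, adjusted p = 0.039), from 0.710 and 1.38 CPM to 0.502 and 0.455 CPM. The Irx4 call was lost without either day 4 control library (adjusted p = 0.13 and 0.18), without ES 0 h replicate 2 (adjusted p = 0.44), with no filter (adjusted p = 0.095) and in the 4 libraries alone (adjusted p = 0.14), and Irx2 was called higher without ES 0 h replicate 2 (1.10 ± 0.26, adjusted p = 0.0029).

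On day 6, 5 of the 6 were called against ES cells, with 43.7% of genes called. Irx3 (1.92 ± 0.29, adjusted p = 3.3e-05), Irx5 (2.05 ± 0.48, adjusted p = 0.0021) and Irx1 (1.92 ± 0.57, adjusted p = 0.011) were higher by like amounts. Irx6 was higher too (2.54 ± 0.97, adjusted p = 0.041), and Irx4 was lower (−2.40 ± 0.46, adjusted p = 0.00035). Irx2 had a log2 fold change of 0.016 ± 0.26 and was not called. The Irx6 call needed each of the 4 libraries: without day 6 control replicate 1 or 2 the adjusted p was 0.17 or 0.068, and without ES 0 h replicate 1 or 2 it was 0.074 or 0.2. The Irx1 call was lost without ES 0 h replicate 1 (adjusted p = 0.077). ES and differentiation libraries differ in replicate spread and, for the first ES replicates, in depth, and these differences cannot be told apart from the groups.

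Between the day 2 and day 4 controls 4 of the 6 rose, with 52.1% of 22587 tested genes called. Irx3 rose 9.23-fold (3.21 ± 0.14, adjusted p = 5.4e-12), Irx1 5.46-fold (2.45 ± 0.21, adjusted p = 5.1e-08), Irx5 5.01-fold (2.32 ± 0.17, adjusted p = 5.3e-09) and Irx2 1.85-fold (0.89 ± 0.13, adjusted p = 1.6e-05). Irx4 (−0.65 ± 0.30, adjusted p = 0.081) and Irx6 (−1.35 ± 0.88, adjusted p = 0.22) were not called. Over the 16 differentiation libraries, these 4 calls held without any 1 of the 4 libraries compared.

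Between the day 4 and day 6 controls all 6 were called, against 26.7% of tested genes, and Irx6 moved opposite to the rest. Irx3 fell 5.74-fold (−2.52 ± 0.13, adjusted p = 4.4e-10). Irx5 (−1.27 ± 0.16, adjusted p = 1.3e-05), Irx4 (−1.23 ± 0.35, adjusted p = 0.015), Irx1 (−0.78 ± 0.19, adjusted p = 0.0055) and Irx2 (−0.45 ± 0.12, adjusted p = 0.012) fell less. Irx6 rose from 2 and 9 counts to 50 and 38 (2.92 ± 0.81, adjusted p = 0.013). Beside the rise of Irx6, the summed level of the 7 neuron markers was 38.8 to 40.8 CPM in the day 4 control and 259 to 272 CPM in the day 6 control. It was also 215 to 276 CPM in ES cells at 0 h (Stmn2 alone 172 to 203 CPM) and 156 to 158 CPM in the day 2 control. Irx6 had 4 and 4 counts in ES cells at 0 h, so the sum does not follow Irx6 over all groups. The part of these markers in the result was not tested. Apart from Irx3 and Irx5, the calls rested on single libraries. Irx4 was lost without day 6 control replicate 1 (adjusted p = 0.079) or 2 (0.071) or day 4 control replicate 1 (0.077), and Irx6 without day 6 control replicate 1 (0.1) or day 4 control replicate 1 (0.14). Irx2 was lost without day 6 control replicate 2 (adjusted p = 0.2) or day 4 control replicate 1 (0.1), and Irx1 without day 6 control replicate 1 (0.076). In a fit of all 24 libraries, whose common dispersion was 0.0439 against 0.0051 in the 16, Irx3 alone was called.

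In ES cells auxin for 24, 48 or 96 h was followed by no call among the Irx genes. By edgeR's quasi-likelihood test 5 of the 6 were tested, Irx6 having too few counts, and 0 were called at each time, with 0% of 20361 tested genes called at 24 h, 0% at 48 h and 0% at 96 h. None of the 5 had an unadjusted p under 0.05, and DESeq2 also called 0 of them. Irx2, the most abundant in ES cells, was at 4.54 and 9.25 CPM at 0 h, 5.88 and 8.14 CPM at 24 h, 6.46 and 6.40 CPM at 48 h and 9.10 and 7.48 CPM at 96 h. Each auxin group overlapped the 0 h group, and the 48 h and 96 h groups did not overlap each other. At 96 h the SE on the log2 scale was 0.41 (Irx2), 0.50 (Irx3), 0.61 (Irx4), 0.81 (Irx5) and 0.87 (Irx1). Changes of that size could not be told from the spread between these libraries. Larger changes could go uncalled too, after adjustment over all tested genes. Same-numbered ES libraries deviated together, but the main fit held no replicate block. With the replicate number as a block 23, 40 and 621 genes were called at 24, 48 and 96 h, still with 0 Irx genes among them.

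On day 2 of differentiation no Irx gene was called between auxin and control either. By edgeR's quasi-likelihood test 0 of 6 were called while 18.3% of 22587 tested genes were, 0 had an unadjusted p under 0.05, and DESeq2 called 0. Irx3 was at 8.11 and 6.67 CPM with auxin and 5.71 and 7.47 CPM without (0.17 ± 0.14, adjusted p = 0.46). Irx5 was at 1.28 and 1.87 CPM against 1.87 and 1.55 CPM (−0.095 ± 0.19, adjusted p = 0.8). Both pairs of groups overlapped.

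On day 4, when Irx3 and Irx5 reach their highest level in the control, both were lower with auxin, but by unequal amounts. Here 4 of the 6 were called, all lower, with 23.5% of tested genes called in either direction. Irx5 was at 1.69 and 1.70 CPM with auxin against 8.23 and 8.67 CPM in the control, 5.01-fold lower (−2.32 ± 0.17, adjusted p = 3.6e-08). Irx3 was at 36.7 and 37.1 CPM against 56.8 and 63.6 CPM, 1.64-fold lower (−0.71 ± 0.12, adjusted p = 0.00032). Neither gene overlapped between the groups, and the share of all genes without overlap is not given here. In the other cluster Irx1 was at 4.33 and 4.60 CPM against 7.79 and 7.80 CPM (−0.81 ± 0.19, adjusted p = 0.0048), and Irx2 at 7.17 and 7.40 CPM against 9.93 and 9.32 CPM (−0.41 ± 0.12, adjusted p = 0.024). Irx4, at 0.367 and 0.440 CPM against 0.502 and 0.455 CPM, was not called (−0.24 ± 0.32, adjusted p = 0.66), nor was Irx6 with 6 and 6 counts against 2 and 9 (0.20 ± 0.98, adjusted p = 0.93).

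The Irx2 call of day 4 was lost without either day 4 auxin library (adjusted p = 0.13 and 0.088) or either day 4 control library (0.15 and 0.066), and Irx1 reached an adjusted p of 0.05 without day 4 auxin replicate 1. In the fit of all 24 libraries Irx5 alone was called, and Irx3, Irx1 and Irx2 had adjusted p-values of 0.21, 0.64 and 0.63. Other marker lists moved on the same day: 6 of 8 neural progenitor markers were lower and 2 higher with auxin, while their summed level was 551 to 562 CPM against 522 to 523 CPM. Most of that sum is Vim (386 to 398 CPM against 268 to 279 CPM), and the median log2 fold change of the list was −1.67. Of 8 pluripotency markers 5 were higher and 1 lower, with a sum of 1040 CPM in both auxin libraries against 729 to 741 CPM. Of 7 neuron markers 6 were lower (19.8 to 21.9 CPM against 38.8 to 40.8 CPM), and of 9 mesenchyme or fibroblast markers 5 were lower and 1 higher. No marker of these lists was at 0 in both libraries of either group, and their part in the Irx results was not tested.

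The change in the auxin effect between day 2 and day 4 was tested directly as an interaction. It passed for Irx5 (−2.23 ± 0.26, adjusted p = 3.2e-05) and Irx3 (−0.89 ± 0.19, adjusted p = 0.0058), 2 of 6 genes, with 9.9% of all genes passing. It did not pass for Irx1 (−0.46 ± 0.32, adjusted p = 0.43), Irx2 (−0.52 ± 0.18, adjusted p = 0.08), Irx4 (−0.64 ± 0.43, adjusted p = 0.41) or Irx6 (1.10 ± 1.30, adjusted p = 0.68). Without day 2 control replicate 1 the Irx3 value was −0.70 with an adjusted p of 0.052, and without day 2 auxin replicate 1 Irx2 passed at an adjusted p of 0.042. With all 24 libraries in the fit neither passed (adjusted p = 0.28 for Irx5 and 0.78 for Irx3).

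By day 6, Irx3 was higher with auxin and the other called genes were lower. Of the 6, 1 was called higher and 4 lower, with 29.2% of tested genes called. Irx3 was at 17.2 and 16.3 CPM with auxin against 9.15 and 11.6 CPM in the control, 1.60-fold higher (0.67 ± 0.13, adjusted p = 0.00075). The 2 groups of libraries did not overlap. Irx5 was at 1.77 and 1.86 CPM against 3.21 and 3.73 CPM, 1.93-fold lower (−0.95 ± 0.17, adjusted p = 0.00049), and was thus at nearly the same level with auxin on days 2, 4 and 6 (1.57, 1.69 and 1.81 CPM on average). Irx1 was at 2.96 and 1.77 CPM against 4.07 and 4.95 CPM, 1.92-fold lower (−0.94 ± 0.21, adjusted p = 0.0022). Irx2 was at 5.19 and 5.82 CPM against 7.88 and 6.19 CPM (−0.36 ± 0.13, adjusted p = 0.042). Irx4 was at 0.363 and 0.360 CPM against 0.195 and 0.206 CPM, which did not pass (0.83 ± 0.36, adjusted p = 0.1).

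Irx6 had 0 and 2 counts with auxin and 50 and 38 counts in the control on day 6. The ratio of its level was 38.0, with an exact 95% interval of 10.2 to 319 that covers counting error only. That interval and those for Irx6 below take counts as independent. Most low counts were even, so the intervals may be too narrow. The fitted value was −5.12 ± 1.06 (adjusted p = 0.0014 by edgeR's quasi-likelihood test), for a gene kept by the filter only through the day 6 control. Neuron markers moved the same way: 7 of 7 were lower with auxin, with a sum of 24.1 to 24.2 CPM against 259 to 272 CPM and none at 0 in both libraries of a group. As given above for ES cells and the day 2 control, that sum does not follow Irx6 over all groups. The part of these markers in the Irx6 result was not tested. Beside the other Irx genes, 7 of 8 pluripotency markers were higher and 1 lower (819 to 839 CPM against 452 to 470 CPM). Of 8 neural progenitor markers 7 were lower (614 to 630 CPM against 654 to 665 CPM). Most of that sum is Vim (443 to 464 CPM against 410 to 420 CPM), and the median log2 fold change of the list was −1.74. Of 9 mesenchyme or fibroblast markers 7 were lower and 1 higher (717 to 719 CPM against 825 to 849 CPM). The part of these 3 lists was not tested either.

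The replicate block ended the Irx2 call of day 6 (adjusted p = 0.053), as did leaving out day 6 auxin replicate 1 (0.25), day 6 auxin replicate 2 (0.069) or day 6 control replicate 1 (0.41), and Irx1 was at −0.62 with an adjusted p of 0.051 without day 6 auxin replicate 2. With all 24 libraries in the fit Irx6 alone was called, and Irx3, Irx5, Irx1 and Irx2 had adjusted p-values of 0.17, 0.3, 0.44 and 0.6.

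From day 4 to day 6 the auxin effect of Irx3 changed by 1.39 ± 0.18 (adjusted p = 0.00018) and that of Irx5 by 1.37 ± 0.24 (adjusted p = 0.0033). These 2 of the 6 passed, with 4.24% of all genes passing. The size was alike, but Irx3 crossed from lower to higher with auxin whereas Irx5 went from a larger to a smaller deficit. Irx6 had the largest estimate (−5.31 ± 1.53) and an adjusted p of 0.066. Irx6 passed with no filter on low counts (adjusted p = 0.0012) and without the day 2 auxin group (0.018), and with all 24 libraries none of the 6 passed (0.42 for Irx3 and 1 for Irx5). The day 4 and day 6 effects share no library.

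**Figure D2:**
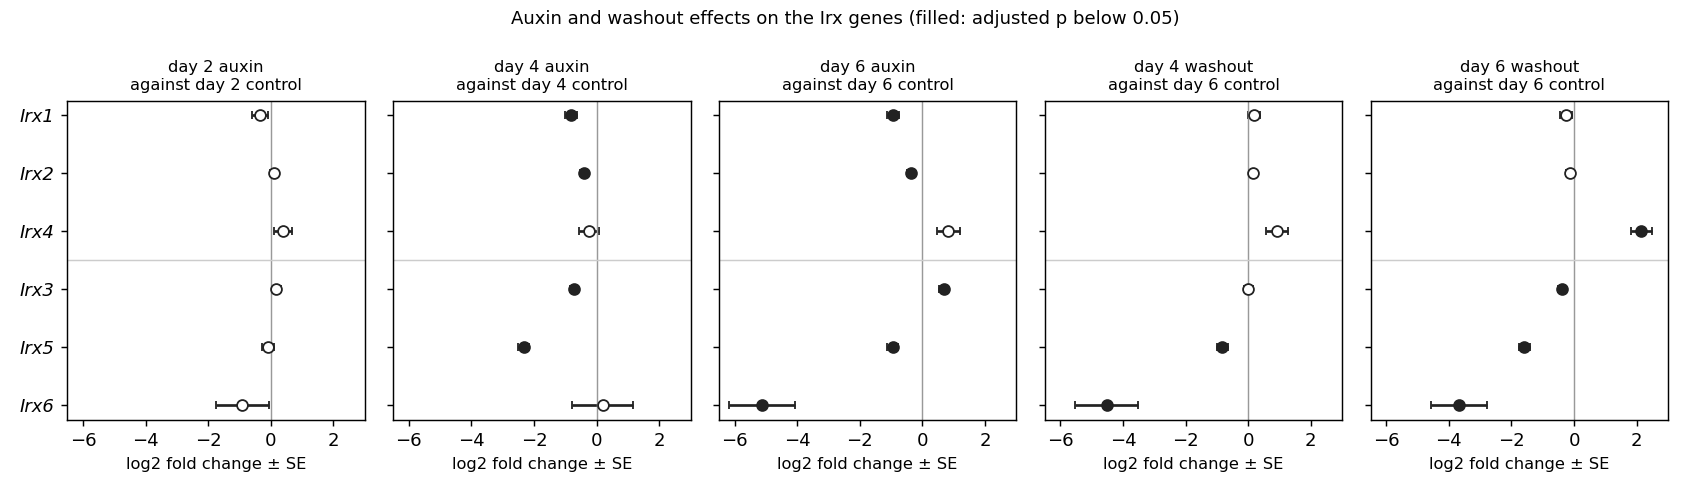
Log2 fold change ± SE of the 6 Irx genes for auxin against control on days 2, 4 and 6 and for both washout groups against the day 6 control. Each point comes from 2 libraries against 2, a filled point has an adjusted p below 0.05, and the horizontal line separates the clusters. No point is filled on day 2, and Irx3 is left of 0 on day 4 and right of 0 on day 6.

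The washout groups show the levels 2 days after auxin was removed. Compared with cells kept in auxin to day 6, day 4 washout cells had 2 Irx genes higher and 1 lower, with 34.6% of tested genes called. Irx1 was at 4.81 and 5.31 CPM against 2.96 and 1.77 CPM (1.11 ± 0.21, adjusted p = 6e-04) and Irx2 at 7.42 and 8.08 CPM against 5.19 and 5.82 CPM (0.52 ± 0.13, adjusted p = 0.0053). Irx3 was lower, at 10.8 and 9.98 CPM against 17.2 and 16.3 CPM (−0.67 ± 0.13, adjusted p = 0.00091). The libraries did not overlap for any of the 3, which were already picked as called. The share of all genes without overlap is not given here. Irx5 was not called (2.08 and 1.79 CPM against 1.77 and 1.86 CPM, 0.12 ± 0.19, adjusted p = 0.68). Without day 6 auxin replicate 1 the adjusted p of Irx2 was 0.064, and in the fit of all 24 libraries none of the 3 was called (0.27 for Irx1, 0.32 for Irx2 and 0.15 for Irx3). In the same comparison 8 of 9 mesenchyme or fibroblast markers were higher and 1 lower in day 4 washout (900 to 936 CPM against 717 to 719 CPM), 6 of 7 neuron markers were higher (39.6 to 41.6 CPM against 24.1 to 24.2 CPM) and 4 of 6 blood and endothelium markers were lower. Their part was not tested.

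Compared with the untreated day 6 cells, day 4 washout cells had 2 of 6 genes called, both lower and both of the Irx3-Irx5-Irx6 cluster, with 33.9% of tested genes called. Irx5 was 1.78-fold lower (−0.84 ± 0.17, adjusted p = 0.0014). Irx6 had 0 and 3 counts against 50 and 38, a ratio of 24.2 with an exact 95% counting interval of 8.02 to 120 (−4.52 ± 1.00, adjusted p = 0.0022). The neuron marker sum was 39.6 to 41.6 CPM against 259 to 272 CPM, with 7 of 7 lower, and its part was not tested. Irx3 had a difference of 0.0026 ± 0.13 (adjusted p = 0.99), Irx1 of 0.17 ± 0.19 (0.54), Irx2 of 0.15 ± 0.13 (0.38) and Irx4 of 0.92 ± 0.36 (0.063). With all 24 libraries in the fit Irx5 was not called (adjusted p = 0.33). This comparison and the day 6 auxin comparison share the day 6 control libraries.

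The day 6 washout group, 2 days older than both of its comparators, differed from the day 6 auxin group in 4 genes, with 40.3% of tested genes called. Irx4 was higher, at 0.951 and 0.837 CPM against 0.363 and 0.360 CPM (1.31 ± 0.31, adjusted p = 0.003), and so was Irx1 (0.69 ± 0.21, adjusted p = 0.016). Irx3, at 8.53 and 7.48 CPM, was lower (−1.05 ± 0.13, adjusted p = 1.1e-05), and so was Irx5, at 1.25 and 1.06 CPM (−0.64 ± 0.20, adjusted p = 0.017). The Irx1 call was lost without day 6 washout replicate 2 (adjusted p = 0.083) or day 6 auxin replicate 2 (0.21), and the Irx5 call without day 6 washout replicate 2 (0.15), day 6 auxin replicate 1 (0.055) or day 6 auxin replicate 2 (0.083). In the fit of all 24 libraries Irx3 alone was called, with Irx4 at an adjusted p of 0.066, Irx5 at 0.44 and Irx1 at 0.49. Beside these, 8 of 9 mesenchyme or fibroblast markers were higher and 1 lower in day 6 washout (1440 to 1490 CPM against 717 to 719 CPM), 6 of 7 neuron markers and 6 of 8 endoderm markers were higher, and 6 of 8 pluripotency markers were lower and 1 higher. Their part was not tested.

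Against the day 6 control the day 6 washout group also differed in 4 genes, with 36.9% of tested genes called. Irx4 was 4.43-fold higher (2.15 ± 0.33, adjusted p = 7.7e-05) and back within the range of the ES libraries. Irx5 was lower by a factor of 3.0 (−1.59 ± 0.18, adjusted p = 4.2e-06), Irx3 1.30-fold lower (−0.38 ± 0.14, adjusted p = 0.039) and Irx6 lower with 0 and 6 counts (ratio 13.1, exact 95% counting interval 5.78 to 36.7; fitted −3.68 ± 0.89, adjusted p = 0.0038). Irx3 was lost without day 6 washout replicate 1 (adjusted p = 0.062) or 2 (0.26), without day 6 control replicate 2 (0.41) and with all 24 libraries (0.48), and Irx6 was at 0.053 without day 6 washout replicate 1. Beside the Irx4 level, 5 of 8 heart muscle markers were higher in day 6 washout than in the day 6 control (summed level 71.3 to 75.4 CPM against 39.7 to 43.2 CPM), as were 6 of 9 mesenchyme or fibroblast markers, with 1 lower (1440 to 1490 CPM against 825 to 849 CPM), and 7 of 7 neuron markers were lower. Other lists moved as much: 5 of 8 surface ectoderm markers were higher and 1 lower (702 to 744 CPM against 393 to 413 CPM), 5 of 8 endoderm markers higher and 2 lower, 6 of 8 pluripotency markers higher and 1 lower, 4 of 6 blood and endothelium markers higher, and 6 of 8 neural progenitor markers lower and 2 higher. The part of these lists in the Irx results was not tested.

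The clusters were compared over all 12 groups with levels per kb of exon, since CPM alone favours long genes. In each of the 4 ES groups Irx2 was the most abundant Irx gene (1.96 to 2.53 CPM per kb) and Irx3 the second. In each of the 8 differentiation groups Irx3 was the most abundant, and in the day 4 control it averaged 21.8 CPM per kb against 2.98 CPM per kb for Irx1, the next. The Irx3-Irx5-Irx6 cluster held less than 50% of the summed 6-gene level in 8 of 8 ES libraries (23.7 to 39.1%) and more than 50% in 12 of 12 control and auxin libraries of differentiation (53.2 to 81.2%). In the washout libraries it held 45.4 to 51.8%, above 50% in 1 of 4.

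By group the share of the Irx3-Irx5-Irx6 cluster was 31.1% ± 4.32 in ES cells at 0 h, 27.3% ± 1.11 at 24 h, 34.8% ± 6.05 at 48 h and 29.8% ± 8.61 at 96 h of auxin. The 48 h and 96 h groups overlapped the 0 h group, whereas the 24 h libraries (26.5 and 28.07%) lay just below the 0 h libraries (28.09 and 34.2%). It was 55.1% ± 0.925 in the day 2 control and 55.9% ± 0.0587 with auxin. It reached 80.1% ± 1.58 in the day 4 control and 77.4% ± 0.513 with auxin, when the summed level of both clusters was lower with auxin (13.9 against 24.5 CPM per kb for Irx3-Irx5-Irx6 and 4.08 against 6.09 CPM per kb for Irx1-Irx2-Irx4). On day 6 the shares parted, at 56.1% ± 4.16 in the control and 71.0% ± 0.819 with auxin. There the Irx3-Irx5-Irx6 sum was 6.66 against 5.07 CPM per kb and the Irx1-Irx2-Irx4 sum 2.72 against 3.94 CPM per kb. The shares were 49.7% ± 2.95 in day 4 washout and 46.6% ± 1.65 in day 6 washout. These shares follow Irx3 above all, since it holds most of its cluster's sum in differentiation. They are given as a description, with no test.

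**Figure D3:**
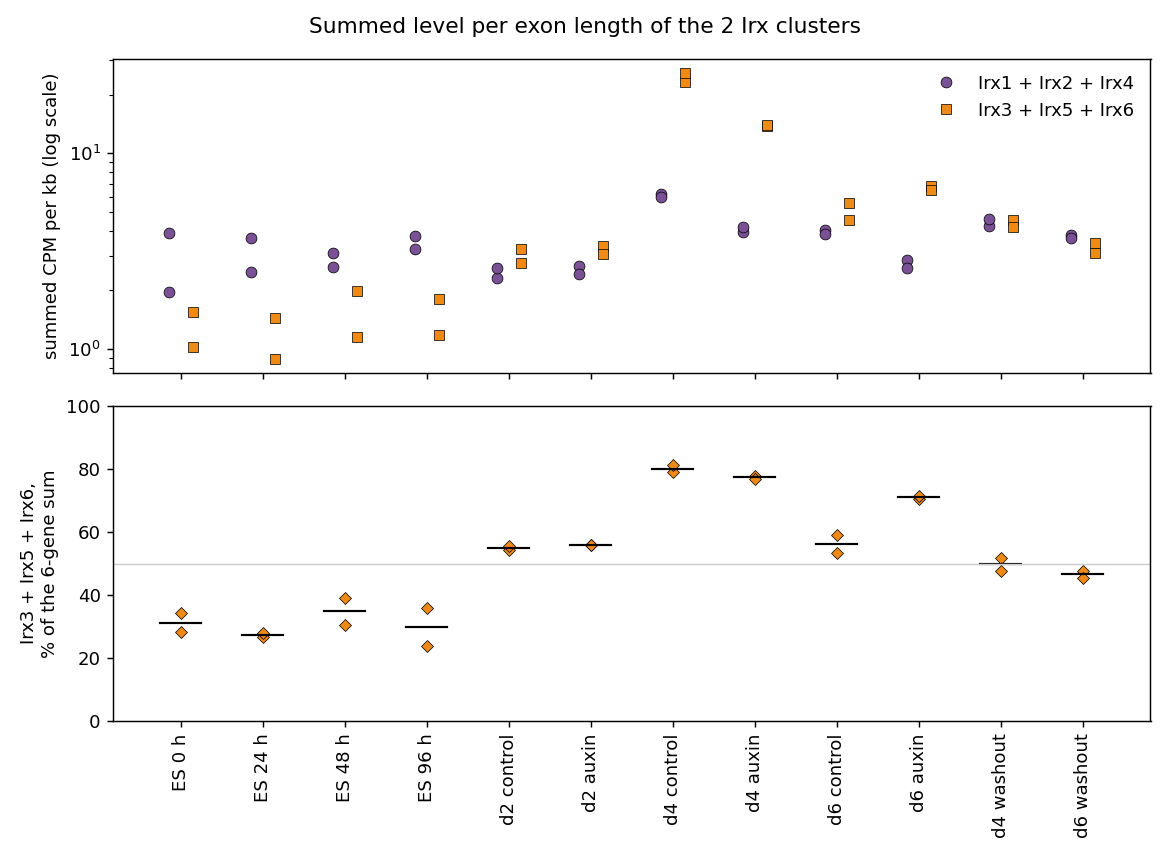
Summed level of each cluster in CPM per kb of exon on a log axis (top) and the share of the 6-gene sum held by Irx3-Irx5-Irx6 in percent (bottom), for the 24 libraries. Points are libraries and horizontal bars are means of 2. The share is below 50% in all 8 ES libraries and reaches 80.1% on average in the day 4 control.

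Within a cluster the genes did not move as a block. The median log2 fold change with auxin on day 4 was −0.71 for the Irx3-Irx5-Irx6 genes and −0.41 for the Irx1-Irx2-Irx4 genes, against 0 over all tested genes. On day 6 these medians were −0.95 and −0.36, against 0.0079 over all genes. With 3 genes a median is the value of 1 gene: Irx3 and Irx2 on day 4, Irx5 and Irx2 on day 6. The summed level of Irx3-Irx5-Irx6 on day 6 went the other way, at 6.66 CPM per kb with auxin against 5.07 CPM per kb. The 3 genes of the chromosome 8 cluster then spanned 0.67 for Irx3 at one end, −0.95 for Irx5 in the middle and −5.12 for Irx6 at the other end of the cluster. The chromosome 13 cluster spanned −0.94 for Irx1, −0.36 for Irx2 and 0.83 for Irx4 in their order along the chromosome.

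Genes lying within 2 Mb of the clusters were examined from a list, 12 beside each. Of 10 tested beside Irx3-Irx5-Irx6, 1 was higher and 2 lower with auxin on day 4, and 1 was higher and 1 lower on day 6, beside 23.5% and 29.2% of all tested genes called. Irx3os, the antisense gene that starts beside Irx3, took the same directions as Irx3, at 0.88 and 1.2 CPM against 2.01 and 1.89 CPM on day 4 (−0.91 ± 0.29, adjusted p = 0.03) and 1.35 and 1.15 CPM against 0.765 and 0.480 CPM on day 6 (1.01 ± 0.31, adjusted p = 0.021). Part of those reads may fall in the exon bases that both genes share. Fto, which encodes an RNA demethylase and ends 130 kb from Irx3, was at 134 and 146 CPM against 140 and 131 CPM on day 4 (0.05 ± 0.06, adjusted p = 0.67) and was not called on day 6 either (0.05 ± 0.06, adjusted p = 0.64). Crnde, a long noncoding RNA gene that lies between Irx3 and Irx5, was not called on day 4 (−0.60 ± 0.26, adjusted p = 0.12) or day 6 (0.75 ± 0.30, adjusted p = 0.076). Mmp2, a matrix metalloproteinase gene 146 kb beyond Irx6, was lower on day 4 (−0.70 ± 0.08, adjusted p = 4.1e-06) and day 6 (−1.13 ± 0.08, adjusted p = 8.1e-09). Next to it Lpcat2 was not called (0.023 ± 0.15 on day 4 and 0.26 ± 0.16 on day 6). The remaining call beside this cluster was Rpgrip1l, higher on day 4.

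Beside Irx1-Irx2-Irx4 all 12 listed genes were tested. On day 4, 1 was higher (Clptm1l) and 3 lower with auxin (Adamts16, Nkd2 and Slc6a19), beside 23.5% of all tested genes called. On day 6, 2 were higher (Clptm1l and Lpcat1) and 2 lower (Adamts16 and Nkd2), beside 29.2% called. The nearest, Ndufs6 and Mrpl36, which encode a subunit of respiratory complex I and a mitochondrial ribosomal protein, were not called on day 4 (0.22 ± 0.12 and −0.027 ± 0.11) or day 6 (0.14 ± 0.11 and 0.13 ± 0.11). Lpcat1 was at −0.041 ± 0.06 on day 4 and 0.20 ± 0.06 on day 6. Nkd2, a Wnt pathway antagonist gene 549 kb from the cluster, was singled out after its values were seen, as the neighbour with the largest change: its level was 0.587 and 0.637 CPM with auxin against 4.38 and 4.94 CPM on day 4 (−2.93 ± 0.20, adjusted p = 1.3e-08). Unlike the Irx genes Nkd2 was lower on day 2 as well (−3.70 ± 0.20, adjusted p = 2.2e-09). The median log2 fold change of the neighbours on day 4 was −0.081 beside Irx1-Irx2-Irx4 and −0.042 beside Irx3-Irx5-Irx6, against 0 over all tested genes.

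**Figure D4:**
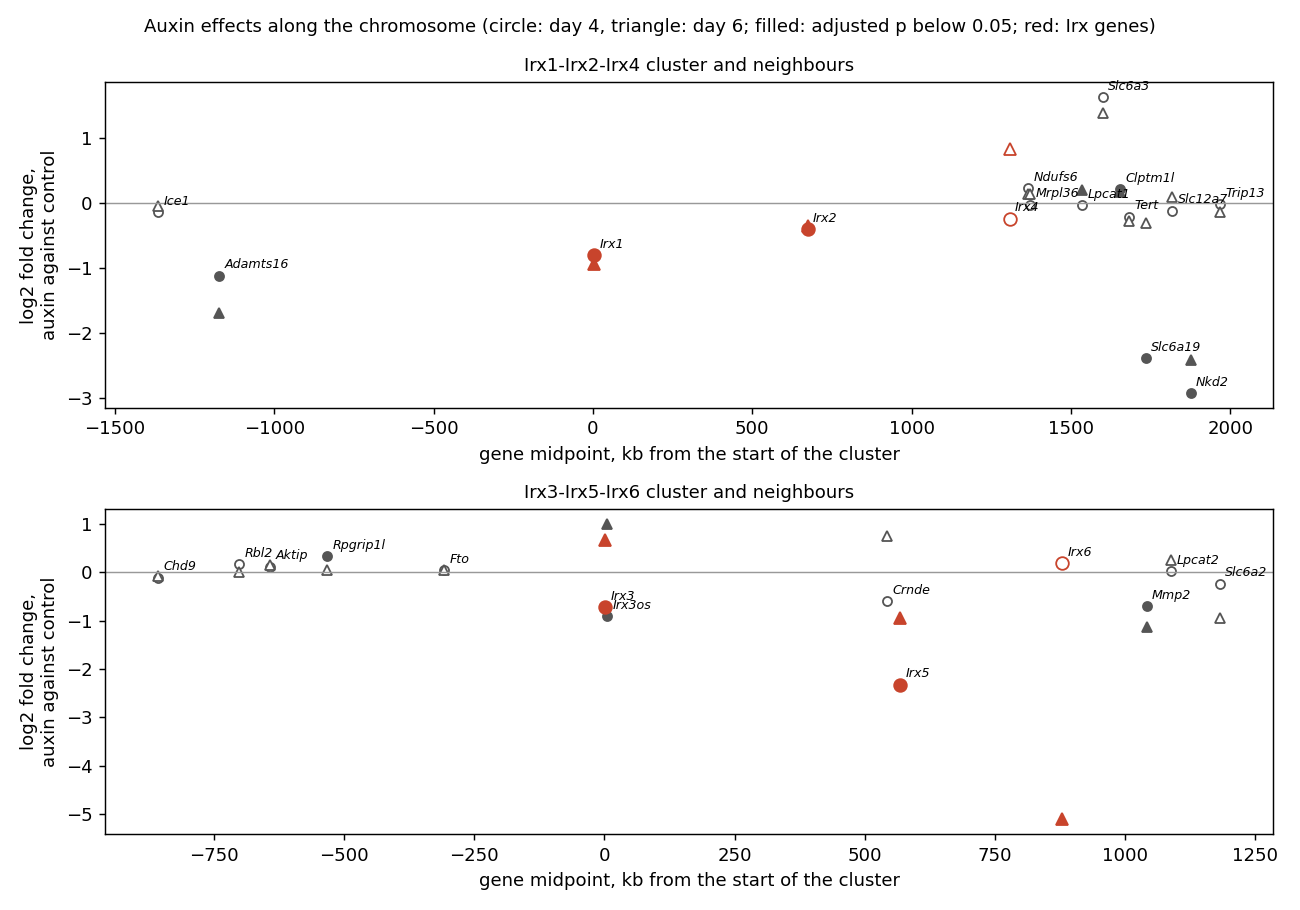
Log2 fold change with auxin of the Irx genes (red) and their listed neighbours (grey), placed by distance of the gene midpoint from the start of the cluster in kb; circles are day 4, triangles day 6, and filled symbols have an adjusted p below 0.05. The 5 tested neighbours on the Fto side of Irx3 lie between −0.11 and 0.33 on both days, with 1 filled symbol (Rpgrip1l on day 4), whereas Irx3, Irx3os, Irx5 and Mmp2 have filled symbols on both days and Irx6 on day 6.

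Other TALE homeodomain genes, which include the Meis, Pbx and Pknox partners of Hox proteins and the Tgif repressors, were counted as a list of 12. With auxin 1 was higher and 4 lower on day 2, 0 higher and 6 lower on day 4 and 0 higher and 6 lower on day 6, beside 18.3%, 23.5% and 29.2% of all tested genes called in either direction on the 3 days. Their medians were −0.16, −0.28 and −0.24, against 0.023, 0 and 0.0079 over all tested genes. Pknox2 had the largest change on day 6 (−1.52 ± 0.09) and was lower on day 4 too (−1.12 ± 0.09), as was Meis3 (−0.79 ± 0.08 on day 6 and −0.77 ± 0.08 on day 4). Of 25 genes that pattern the neural tube, 6 were higher and 7 lower on day 2, 1 higher and 16 lower on day 4, and 3 higher and 14 lower on day 6, beside the same shares of all tested genes. The medians of this list were 0.0061, −0.93 and −1.12. Olig2, whose protein and Irx3 are known to oppose each other, was at 0.147 and 0.243 CPM with auxin against 6.45 and 7.21 CPM on day 4 (−5.10 ± 0.24, adjusted p = 2.9e-10). On day 6 Olig2 was at 0.0661 and 0.0721 CPM against 6.29 and 6.13 CPM (−6.46 ± 0.29, adjusted p = 1e-10). The other 5 largest of the list on day 6, all lower, were Dbx1 (−4.57 ± 0.50), Prdm12 (−3.90 ± 0.51), Prdm8 (−3.71 ± 0.23), Nkx6-1 (−3.52 ± 0.16) and Olig3 (−3.26 ± 0.53). On day 4 Dbx1 (−5.70 ± 0.47), Prdm12 (−3.80 ± 0.50), Prdm8 (−3.01 ± 0.26) and Nkx6-1 (−3.45 ± 0.15) were lower too, and Olig3 was not called (−0.36 ± 0.56). Olig2 was therefore lower on both days, while Irx3 was lower on the first and higher on the second.

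As a description over the 12 group means, which share libraries and depth, Irx1, Irx3 and Irx5 followed one another although Irx1 lies in the other cluster. Pearson's r of log2 CPM was 0.852 between Irx1 and Irx3, 0.825 between Irx3 and Irx5 and 0.806 between Irx1 and Irx5. Irx4 ran opposite to Irx1 (r = −0.80), Irx5 (r = −0.72) and Irx3 (r = −0.70). Irx6 was near 0 with Irx3 (r = −0.19) and Irx5 (r = 0.11). How often other pairs of genes reach such r values is not given here. Among the 13207 or 13208 candidate genes whose log2 CPM averaged 1 or more, those most like Irx3 were Npnt (r = 0.965), Fbxo32 (0.963) and Akr7a5 (0.948), and those most like Irx5 were Stk11ip (0.918), Tcf3 (0.912) and Igf2bp3 (0.902). The most like Irx1 were Cdh24 (0.965), Heph (0.96) and Brf1 (0.957), the most like Irx2 Reep4 (0.909), Timm44 (0.811) and Plbd2 (0.806), and the most like Irx4 Ssc4d (0.948), Acvrl1 (0.931) and Smagp (0.928). The most like Irx6 were Cntn2 (0.84), Ncan (0.832) and D430041D05Rik (0.824). The best match of Irx6 was weaker than the best match of any other Irx gene. Timm44 and Plbd2, listed for Irx2, had lower r than all listed matches of Irx6. Irx6 was close to the detection limit outside the day 6 control, which limits what its r values can show.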

How the data were processed

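RNA-seq was done on 24 libraries of CTCF-AID mouse ES cells, 12 groups of 2. The authors deposited 1 table of raw read counts per gene; per the submitters' processing notes STAR, HTSeq and edgeR were used with the mm10 genome, and no version is given in the sources used here. Of values from 1 to 20, 59.6 to 78% were even in the deposited counts. The 1 row with no gene name was left out, and the header, in which the names of the day 6 control columns are joined by spaces, was split on white space. Replicates were not identical. Groups follow the sample titles. The counts were fitted with edgeR 4.0.16 in R 4.3.3 (filterByExpr with a minimum count of 10 and minimum total of 15, TMM scaling, quasi-likelihood F test, Benjamini-Hochberg adjustment over all genes of a fit, threshold 0.05) for 17 comparisons: ES auxin on 8 libraries, control against ES on 24, and the rest on 16. SE is the absolute log2 fold change divided by the square root of F. The code was tested on simulated data. CPM uses TMM-scaled library sizes over 24 libraries, and CPM per kb divides by the exon union length of GENCODE; log2 CPM for likeness had a prior count of 2. Exact binomial 95% intervals were used for Irx6 ratios. These intervals, and the allowance for a count of 0, take counts as independent and may be too narrow, since most low counts were even.

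Library totals of 24696374 to 72048935 set the precision: a count of 0 allows 3 counts. Alternatives were RLE scaling, DESeq2, no filter, halved counts, a replicate block, other sets of libraries and leaving out each library; the fit without the day 2 auxin group was chosen after seeing the data. Same-numbered ES libraries deviated together (r of 0.14 to 0.51 over 6 pairs of groups), so their numbers were taken to pair them in the replicate block. That block was an alternative only, and the main fits ignored the pairing. All first ES replicates also had lower totals than the second, so pairing and depth cannot be told apart. Same-numbered differentiation libraries did not deviate together (−0.11 to 0.071 over 28). The 6 members and all gene lists were chosen with earlier results of these data known. Genes were named by rule: every Irx gene, the 3 genes most like each by Pearson r, all called neighbours with values for the 8 nearest, and up to 6 TALE and 6 neural tube genes with the largest called change on day 6. Nkd2 was chosen after its values were seen. Promoter sequences are from RefSeq, and the sequences of Irx1, Irx5 and Irx6 were not used here.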

Additional observations from a re-analysis of the deposited data

Results flagged for a closer look

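The auxin effect on 2 Irx genes differed between days by a test of the difference itself (edgeR's quasi-likelihood interaction test, 2 libraries in each of 4 groups). For Irx3 the log2 effect on day 4 minus that on day 2 was −0.89 ± 0.19 (adjusted p = 0.0058), and on day 6 minus day 4 it was 1.39 ± 0.18 (adjusted p = 0.00018). For Irx5 the same differences were −2.23 ± 0.26 (adjusted p = 3.2e-05) and 1.37 ± 0.24 (adjusted p = 0.0033). The libraries of auxin and control did not overlap for Irx3 and Irx5 on days 4 and 6 and overlapped on day 2. How common this was over all genes is not given here. The 2 interactions share the day 4 libraries, so a day 4 library that deviated would move both.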

How the results depend on the processing

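No Irx result reversed under any alternative run. The tests of single genes, called or not, kept their outcome under RLE scaling (99 of 99), DESeq2 (95 of 95) and halved counts (99 of 99). DESeq2 gave no adjusted p for the rest of the 99 tests, so these had no outcome to compare. With all 24 libraries in the fit, which carries the wider ES spread, 24 of 81 tests lost a call. Many of those 81 tests had no call to lose, so the share of calls lost was larger. Calls were also lost, and a few gained, when 1 library was left out. With the replicate block 1 of 99 tests lost its call, Irx2 on day 6 (−0.36 ± 0.13, adjusted p = 0.053 by edgeR's quasi-likelihood test). No other call of an Irx gene changed with the block, and the differentiation numbers showed no pairing. Numbers of Irx genes called with all 24 libraries against the main count were 1 against 6 (day 6 against day 4 control), 1 against 4 (day 4 auxin), 1 against 5 (day 6 auxin), 0 against 2 for both changes of the auxin effect, 0 against 3 (day 4 washout against day 6 auxin), 1 against 2 (day 4 washout against day 6 control) and 1 against 4 (day 6 washout against day 6 auxin). For day 2 control against ES cells, 1 gene was called, 2 with the ES 0 h and control groups only and 0 with the 4 libraries alone. Leaving out 1 library, where the lone library left in a group is assumed to vary like the others, gave 0 to 1 (day 2 control against ES), 3 to 4 (day 6 control against ES), 3 to 6 (day 6 against day 4 control), 2 to 3 (day 4 auxin), 3 to 5 (day 6 auxin), 1 to 3 (day 4 minus day 2 effect), 2 to 4 (day 6 washout against day 6 auxin) and 2 to 4 (day 6 washout against day 6 control). In ES cells the genes called over the whole table rose from 0 to 23, 40 and 621 with the block and to 76, 154 and 365 with DESeq2 at 24, 48 and 96 h. With the longest transcript as length, the share of Irx3-Irx5-Irx6 was 24.8% (ES 24 h), 51.9% (day 2 control), 52.6% (day 2 auxin, 56.0% with halved counts), 77.9% (day 4 control), 74.6% (day 4 auxin), 46.5% (day 4 washout), 67.9% (day 6 auxin) and 43.4% (day 6 washout). Depth limits Irx6 most, at 10 counts or fewer outside the day 6 control and day 2 control groups.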
